A study of Drosophila melanogaster with 2 samples.

Results

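The regions described here are 490 distal intergenic binding peaks of the Drosophila melanogaster protein CG17328. They are the peaks of the authors' conservative series-level list whose summit, the position of highest signal, lay in no annotated transcript and more than 3000 bp from the nearest annotated transcript start site of any gene. They made up 8.45% (95% Wilson interval 7.76 to 9.19%) of the 5802 conservative peaks on the chromosome arms, and 5 further peaks on unplaced scaffolds brought the list to 5807. The rule used only position, so signal, replicate overlap and base composition were not used by it. It does select long intergenic intervals and so bears on which genes can be neighbours, for which distal candidate summits chosen by the same positions are given beside the peaks.

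The peaks come from chromatin immunoprecipitation followed by sequencing (ChIP-seq) of transgenic flies that express CG17328 fused to enhanced green fluorescent protein (eGFP). Whole embryos of the strain CG17328-GFP, collected from 0 to 24 h, were used, chromatin was sheared by sonication and the fusion was pulled down with an anti-GFP antibody. The 2 biological replicates form a single group, so no value carries a test between groups, and no control library was analysed here. Each embryo sample mixes all cell types and stages of that span, so a peak bound in few cells and a weak peak bound in many cannot be told apart, and the eGFP tag marks the fusion protein only.

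CG17328 is annotated as a zinc-finger protein, a class whose members often recognise DNA through arrays of zinc fingers. Intergenic sequence far from start sites holds developmental enhancers, insulators bound by proteins such as CTCF and Su(Hw), Polycomb response elements and silenced repeats. Genes that pattern the fly embryo, many of them transcription factors with a homeobox, often stand alone in long intergenic stretches that hold their enhancers.

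Sequence at the strongest distal summits was mostly rich in A and T. The lines below give 81 bp around the summits of the strongest distal peaks that lie on 2L, 3L and 3R, from RefSeq's copy of the dm6 assembly on the forward strand, and show how far single summits depart from that pattern. Capitals mark runs of 6 or more A or T, except in the peak between slp1 and slp2, where they mark GGTCACACT, the core promoter Motif 1 read by M1BP.
COX7AL2 to CG31668, chr2L:2202364-2202444: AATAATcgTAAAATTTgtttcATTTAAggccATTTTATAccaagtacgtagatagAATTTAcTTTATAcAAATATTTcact
CG44362 to CG7560, chr3L:11418417-11418497: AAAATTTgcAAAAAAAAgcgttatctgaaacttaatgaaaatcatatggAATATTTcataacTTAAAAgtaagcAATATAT
CG44362 to CG7560, chr3L:11416941-11417021: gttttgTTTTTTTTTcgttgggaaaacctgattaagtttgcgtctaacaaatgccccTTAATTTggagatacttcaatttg
CG13896 to hng3, chr3L:724680-724760: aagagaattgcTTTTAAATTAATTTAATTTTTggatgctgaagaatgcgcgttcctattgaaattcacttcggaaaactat
CG43131 to RabGGTa, chr3R:5113235-5113315: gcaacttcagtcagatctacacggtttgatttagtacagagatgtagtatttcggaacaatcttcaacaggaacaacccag
slp1 to slp2, chr2L:3832480-3832560: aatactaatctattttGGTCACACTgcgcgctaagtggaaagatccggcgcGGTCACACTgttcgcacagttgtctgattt

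More sets are shown because they hold the words of insulator proteins that were searched. Capitals mark a match on either strand to the Su(Hw) word TGCATANTT, with C or T at N, in the next lines.
vvl to Prat2, chr3L:6816370-6816450: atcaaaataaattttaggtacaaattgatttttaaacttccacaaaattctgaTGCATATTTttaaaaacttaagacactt
Chsy to sog, chrX:15599821-15599901: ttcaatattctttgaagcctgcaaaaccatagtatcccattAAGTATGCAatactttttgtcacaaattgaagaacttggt
CG13309 to dally, chr3L:8813630-8813710: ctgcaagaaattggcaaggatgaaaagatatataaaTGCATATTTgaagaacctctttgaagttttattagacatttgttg

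In the next lines capitals mark a match to the CTCF word AGNNGGCG, with A or G at the first N and G or T at the second.
CG13970 to CG10651, chr2L:20121047-20121127: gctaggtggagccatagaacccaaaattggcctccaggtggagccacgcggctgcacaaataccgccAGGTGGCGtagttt
soti to cv-c, chr3R:14391421-14391501: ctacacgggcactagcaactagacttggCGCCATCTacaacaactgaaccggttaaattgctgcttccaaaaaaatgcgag
croc to Neu2, chr3L:21479850-21479930: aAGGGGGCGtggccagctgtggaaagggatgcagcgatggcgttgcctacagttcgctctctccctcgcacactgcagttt

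The slp1 to slp2 summit lies between the genes of a pair of fork head transcription factors that act in segmentation, and held 46.9% G+C in the 81 bp shown. It held Motif 1 at 2 places, in the same direction, and was the only distal summit of 490 with that word. The COX7AL2 to CG31668 summit held 23.5% G+C and the stronger CG44362 to CG7560 summit 21%, while the CG43131 to RabGGTa summit held 40.7% and no run of 6 A or T.

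Distal peaks were nearly as strong as the list as a whole. The signal is the authors' peak signal as deposited, pooled over both replicates in the series-level list. Its median was 91.1 over the 490 distal peaks (quartiles 67.1 and 139, lowest 2.31, highest 13769), against 94.5 over all 5802 peaks, 98.4 over the 2499 promoter peaks (summit within 500 bp of a start site) and 91.5 over the 465 intergenic peaks nearer a start, which lay more than 500 and up to 3000 bp from it. Among the 100 strongest peaks of the list 5 were distal and 67 were promoter peaks, and 230 of the 490 were among the stronger 2903 peaks. In replicate 1 the signal of the overlapping peak ran from 23.2 to 6636 with a median of 41.6, and in replicate 2 from 25 to 6823 with a median of 51.0. The replicates ranked the distal peaks alike, with a Spearman rho of 0.749 across the 485 peaks that had a signal in both, against 0.782 across all peaks. That correlation is across peaks of the same pair of libraries and is a description. The peaks had themselves been selected for reproducibility, so it does not measure agreement independently of that selection. Replicate 2 was the higher for 346 distal peaks (70.6%), a share close to that of all peaks (70.3%). No source used here says whether both replicates' signals share a scale.

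**Figure D1:**
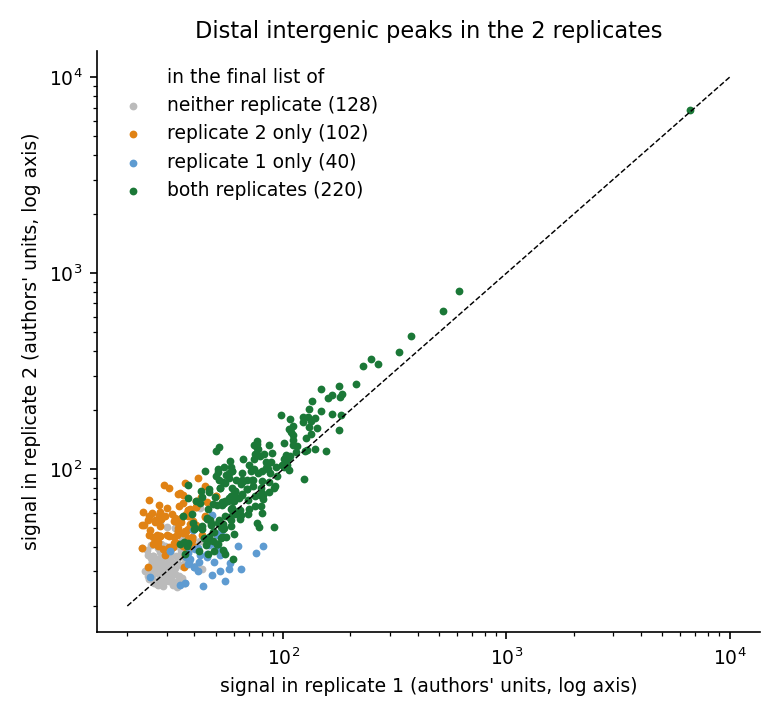
Signal of each distal peak in replicate 1 (x axis, log scale) and replicate 2 (y axis, log scale), in the authors' units, coloured by which replicate's own thresholded list held an overlapping peak; the dashed line marks equal values, and 485 of the 490 peaks have both values. The 220 peaks held by both lists extend to 6636 and 6823, and the 128 held by neither crowd at the low end.

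A smaller share of distal than of promoter peaks recurred in the lists of both replicates, and the share was that of intergenic peaks nearer a start. An overlap of at least 1 bp with a thresholded peak of replicate 1 was found for 260 distal peaks (53.1%, interval 48.6 to 57.4%), against a background of 59.4% of all conservative peaks. For replicate 2 it was 322 (65.7%, 61.4 to 69.8%) against 65.5%, and 66.9% of promoter peaks (65.0 to 68.7%). Both lists held 220 distal peaks (44.9%, 40.6 to 49.3%), against 49.8% of all peaks, 44.9% of intergenic peaks nearer a start and 53.2% (51.2 to 55.1%) of promoter peaks. A peak of replicate 2 alone supported 102 distal peaks (20.8%, 17.5 to 24.6%). That share was 18.7% (15.4 to 22.5%) for intergenic peaks nearer a start, 15.6% for all peaks and 13.7% (12.4 to 15.1%) for promoter peaks. A peak of replicate 1 alone supported 40 distal peaks (8.16%), against 9.62% of all peaks. Neither list held 128 distal peaks (26.1%, 22.4 to 30.2%), against 24.9% of all peaks and 26.5% of intergenic peaks nearer a start. The other series-level thresholded list held 436 of the 490 (89.0%).

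Support followed signal closely. The pooled signal and the replicates' lists come from the same libraries, so this link is partly built in. All 123 of the strongest distal peaks (pooled signal from 139 up) were in both replicates' lists, as were 63.1% of the next 122, 13.1% of the 122 below those and 3.25% of the 123 weakest (66.9 or lower), of which 79.7% were in neither. A small set had pooled values that do not go with the replicates' values. A pooled signal below both replicates' signals was found for 19 distal peaks (3.88%), against 2.98% of all peaks. A pooled signal under 20 was found for 17 distal peaks. Beside 18 distal peaks (3.67%) lay a stronger overlapping pooled peak, against 3.50% of all peaks. In such a pair both peaks take their replicate values from the same replicate peaks. Between hng3 and CG13898, for example, a summit of pooled signal 125 and a summit of 3.50 have the same values of 50.1 in replicate 1 and 72.7 in replicate 2. Intervals on shares cover counting error only, since neighbouring and overlapping peaks are not independent.

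The strongest distal peak was also the strongest of the whole list and stood far from the others. It lay on 2R from 22677970 to 22678748 (dm6), with its summit at -4712 bp (upstream) from lncRNA:CR44761, in the intergenic interval that ends at Ppa, which encodes an F-box protein. The flies carry a transgene whose place in the genome the sources used here do not give, and its part in this value was not tested. The pooled signal was 13769, with 6636 in replicate 1 and 6823 in replicate 2, and was 9.66 times that of the next distal peak. With 779 bp it was the widest distal peak, where 401 of the 490 had the same width of 316 bp. It raised the mean signal of the distal peaks from 124 to 152 and left the median at 91.1.

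Its 11.3-kb interval was the most densely called of those with 3 or more distal peaks. It held 7 distal peaks and 4 distal candidate summits, where a candidate is a summit of the authors' ranked series-level lists that overlaps no thresholded peak of any list. The 6 other peaks had pooled signals of 353, 54.4, 98.8, 63.0, 99.4 and 53.6 from left to right. Replicate 1 gave 166, 38.3, 53.2, 32.8, 58.6 and 35.1 for them, and replicate 2 gave 191, 39.2, 45.1, 29.2, 55.2 and 27.7. For 4 of these 6 replicate 1 was the higher, against the trend of the distal set. Over the 7 peaks the G+C content at the summit was on average 12 percentage points above that of the flanks, the opposite sign to the distal set. The strongest summit itself differed from its flanks by -0.990 points (47.5% against 48.5%). Within 5000 bp of the strongest summit the ranked lists held 16 summits and the conservative list 8 peaks. Distal values with and without this interval are given with the processing alternatives, and none moved beyond its interval or replicate spread.

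The next strongest distal peaks had pooled signals of 1426 or less and lay beside genes of varied function. The peak between Su(z)2, a Polycomb group gene, and CG13323 had a pooled signal of 1426 (611 in replicate 1 and 815 in replicate 2) and lay 11914 bp from the start of CG13323 on 2R from 13035206 to 13035470. A second peak of the same neighbourhood, between CG13321 and Psc, the Polycomb group paralog of Su(z)2, had 565 (228 and 334) on 2R from 12958071 to 12958322. Between COX7AL2 and CG31668 the signal was 1149 (519 and 638). Between blw, which encodes a subunit of the mitochondrial ATP synthase, and CycB, the mitotic cyclin B, it was 852 (373 and 477). In all of these replicate 2 was the higher, and both replicates' lists held them.

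Among the other strong peaks, the stronger of those between CG44362 and CG7560 had 725 (331 and 396), the slp1 to slp2 peak had 616 (266 and 345) and the CG43131 to RabGGTa peak had 614 (247 and 366). Upstream of foxo, a fork head transcription factor of insulin signalling, a peak reached 406 (147 and 257). Between dpr17, which encodes an immunoglobulin-domain surface protein of neurons, and CG4702 it was 392 (166 and 240). Upstream of sano it was 374 (182 and 189), and upstream of ptc, the Hedgehog receptor, 314 (123 and 185). The 25 strongest distal peaks that both replicates' lists hold ended at 310 (141 and 162), between CG7484 and Crtc. Replicate 2 was the higher in all but 1 of these 25, the peak of pooled signal 351 near lncRNA:CR43785 with 178 and 158.

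Called distal peaks thinned out with distance from start sites. Of all distal candidates and peaks 2.83% (2.60 to 3.09%) were conservative peaks, against a background of 4.34% over all 133762 summits and peaks, 4.18% for intergenic summits nearer a start, 2.82% in transcripts and 11.3% at promoters. From 3000 to 5000 bp the share was 3.43% (2.97 to 3.96%, 179 peaks), from 5000 to 10000 bp 2.91% (187 peaks), from 10000 to 20000 bp 2.64% (95 peaks) and beyond 20000 bp 1.42% (0.993 to 2.04%, 29 peaks). Leaving out the Y chromosome, which had 113 distal candidates and no distal peak, gave 1.47% in the farthest class. Median signal had no such order, at 94.3, 85.2, 101 and 85.9 over the same classes. Distances ran from 3015 to 39233 bp with a median of 6300 bp, against 7128 bp for candidates, and 255 peaks (52.0%) lay upstream of the nearest start. The nearest start belonged to a protein-coding gene for 333 peaks, to a non-coding RNA gene for 142 and to a tRNA gene for 15.

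The 3000-bp limit cut through a continuous range. The 6 members nearest to it, from 3015 to 3068 bp, had pooled signals from 54.0 to 164, and the 6 peaks just outside, from 2961 to 2986 bp, had signals from 55.0 to 317. The member at 3015 bp, beside bor, had a signal of 151 (80.3 in replicate 1 and 75.8 in replicate 2). The excluded peak at 2986 bp, beside CG33798, had 56.9 (33.4 and 24.7).

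Arm 3L held more of the distal peaks than of the list or of the distal candidates. It had 157 of the 490 (32.0%, 28.1 to 36.3%), against 21.5% of all peaks and 24.1% of distal candidates. The share was 31.8% in replicate 1's own list, 30.5% in replicate 2's and 29.5% in the other series-level list. Outside the intergenic intervals with 3 or more distal peaks, 71 of 309 distal peaks (23.0%) were on 3L. The intervals left out there were chosen by their number of distal peaks and 20 of the 46 were on 3L, so a fall was built in. With each interval counted once, 3L had 25.7% of the intervals with a distal peak. It had 20.3% of those with a distal peak or candidate. The X chromosome had 52 distal peaks (10.6%), against 18.2% of all peaks and 16.4% of candidates, and 2R had 62 (12.7%). Arms 2L and 3R had 108 and 109, and chromosome 4 had 2.

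**Figure D2:**
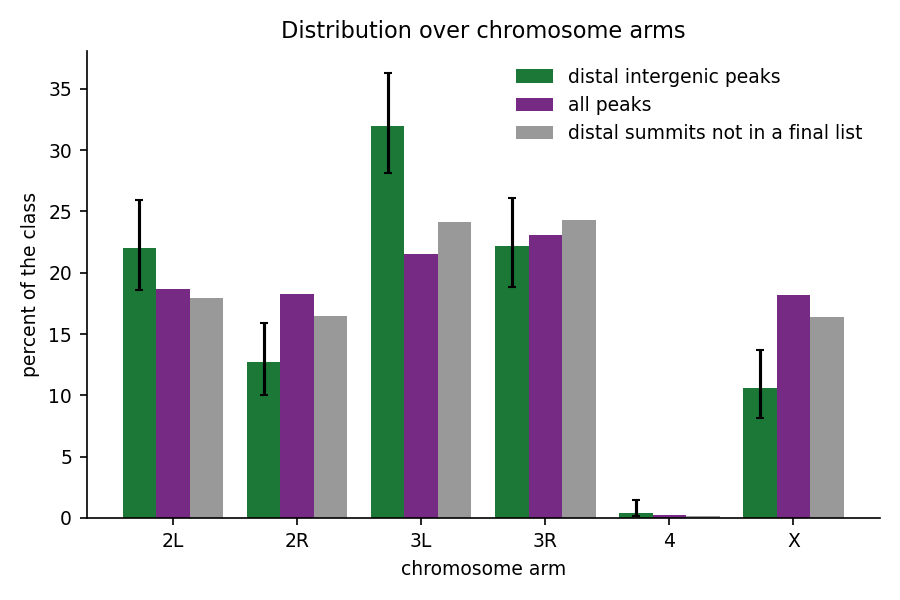
Percent of distal peaks (green, with 95% Wilson intervals), of all conservative peaks (purple) and of distal candidate summits in no final list (grey) on each chromosome arm; the Y chromosome, with no distal peak, is not drawn. On 3L the green bar stands at 32.0% against 21.5% and 24.1%, and on the X at 10.6% against 18.2% and 16.4%.

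Intervals on 3L that had a distal peak also held more of them on average. Distal peaks lay in 292 intervals between annotated transcripts, of which 183 held 1 peak and 63 held 2. On 3L 75 intervals had a distal peak. They were 22.7% of the arm's 331 intervals with a distal peak or candidate, against 17.9% over all arms, 3L included. These 75 held 2.09 peaks each, against 1.68 over all arms. The counts are per interval, not per kb. The arm's 331 intervals held 4044 distal candidates, against 16802 in the 1634 intervals of all arms. The 46 intervals with 3 or more distal peaks held 181 of the 490 (36.9%), and 20 of these intervals, with 86 peaks, were on 3L. In windows of 100 kb counted from the start of each arm, 10 of the 25 windows with 5 or more distal peaks were on 3L, and so were the 5 fullest.

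The fullest window, the bases from 700001 to 800000 of 3L around hng3, held 14 distal peaks, 66 distal candidates and 27 conservative peaks of all classes. There the interval from tRNA:Ile-TAT-1-2 to CG13898 held 9 distal peaks within 25.3 kb. Its strongest had a pooled signal of 419 (184 in replicate 1 and 241 in replicate 2), with 23.8% G+C at the summit against 55.0% in the flanks, and 3 of the 9 were in both replicates' lists. The 75-kb interval between NijA and CG43245 also held 9, beside 79 candidates, with signals from 47.8 to 221. Between lncRNA:CR44363 and CG7560 on 3L 5 of 7 distal peaks were in both lists and lay within a few kilobases of each other, with pooled signals of 332, 438, 175, 160 and 725 from left to right. The 2 flanking members, at 60.8 and 68.1, were in neither list.

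**Figure D3:**
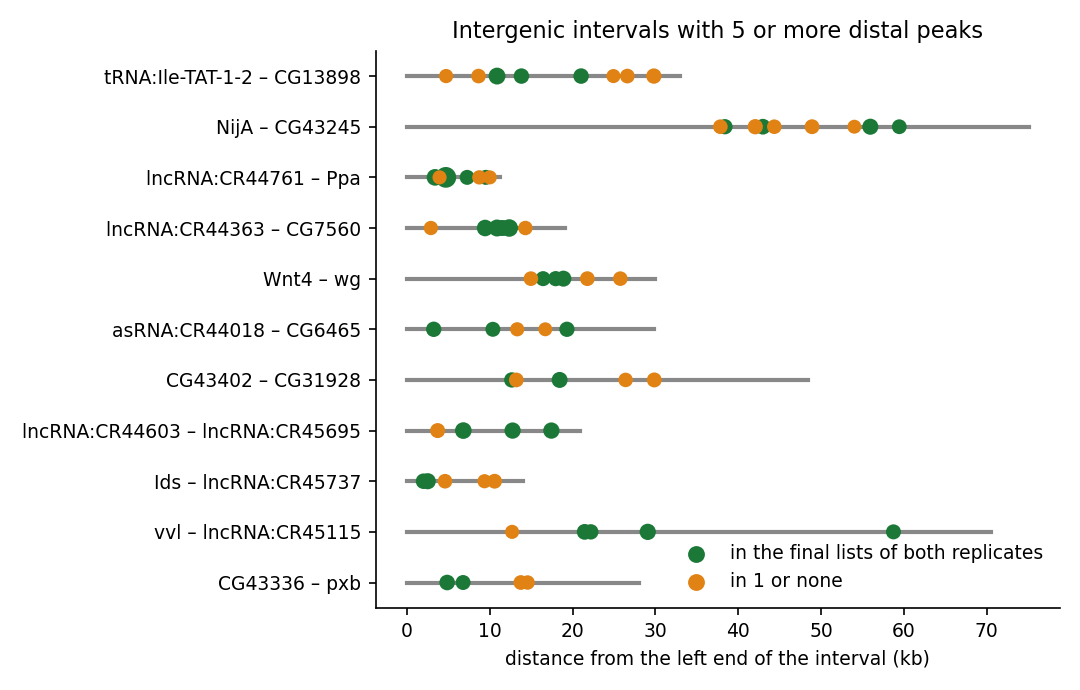
Distal peaks in the 11 intergenic intervals with 5 or more of them; each grey line is an interval drawn to scale from its left end (x axis, kb) and named by the annotated transcripts beside it, and each dot is a summit whose size grows with the logarithm of its pooled signal. Green dots are in both replicates' lists, and the 4 upper intervals, 3 of them on 3L, hold 9, 9, 7 and 7 peaks.

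Distal summits were poorer in G+C than their surroundings, and more so than other peaks. The 50 bp on each side of a distal summit held 33.9% G+C on average, and windows of the same size centred 300 bp to either side held 45.4%. The difference averaged -11.5 percentage points, with an SD of 14 among the 490 peaks. The difference was negative for 394 peaks (80.4%). For promoter peaks it was -5.68 (SD 15.1), for peaks in transcripts -8.93, for intergenic peaks nearer a start -8.47 and for all peaks -7.71. The flanks accounted for most of the gap to the intergenic peaks nearer a start, which had 34.4% at the summit and 42.9% in the flanks, whereas promoter peaks had 37.4% and 43.1%. Distal candidates differed in the other direction, by 3.52 points, with 45.2% at the summit and 41.7% in the flanks.

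**Figure D4:**
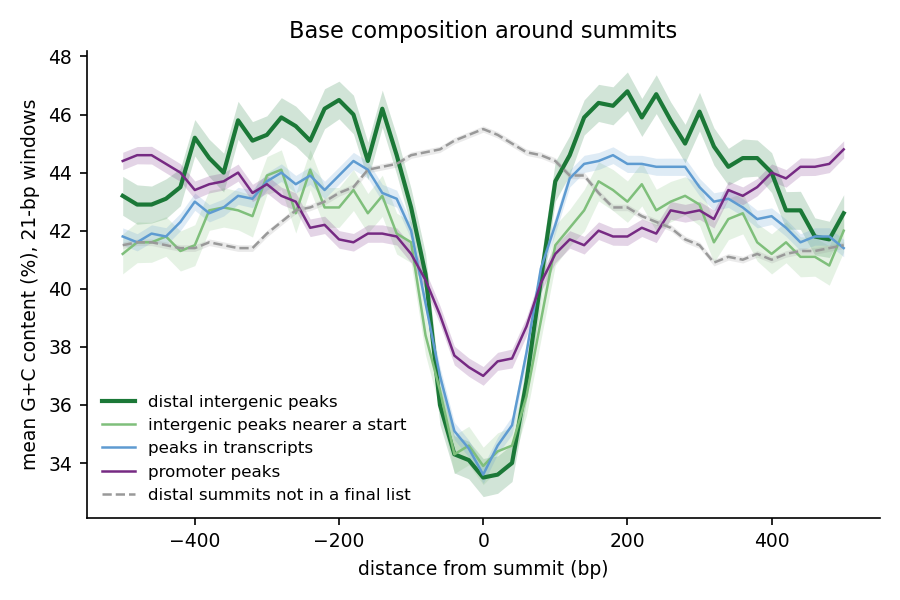
Mean G+C content (y axis, percent) in 21-bp windows against distance from the summit (x axis, bp), for distal peaks, 3 other classes of peaks and distal candidate summits; shading is the standard error over peaks. The distal curve falls to 33.5% at the summit and rises to 46.8% at 200 bp, while candidates peak at 45.5% at the summit.

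The dip was shallow only in the weakest members. From the strongest to the weakest of 4 signal classes the mean difference was -13.7, -14.5, -14.5 and -3.15 points, and the weakest class had a G+C content of 40% at the summit. A run of 10 or more A or T lay within 50 bp of 240 distal summits (49.0%, 44.6 to 53.4%), against 24.7% of flank windows and 25.5% of distal candidate summits, and the longest run had 34 bases. Promoter peaks had such a run at 47.1% of summits and 28.6% of flanks. Single strong peaks went against the pattern, as with the dpr17 to CG4702 summit at 41.6% G+C against 38.6% in its flanks.

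Searched words followed this composition in part. The TATA box word TATAAA lay at 97 distal summits (19.8%, 16.5 to 23.6%), against 7.86% of flank windows, 8.15% of distal candidates and 19.2% of promoter peaks. The word TATTTTAA, taken from an earlier look at the whole list, lay at 25 (5.10%), against 1.22% of flanks, 1.43% of candidates and 5.36% of promoter peaks. The whole list includes the distal peaks, so this contrast with flanks and candidates is not independent of how the word was picked. Of the 25 distal peaks with TATTTTAA 15 were in both replicates' lists, and the median signal of the 25 was 138. The 5 leading words of 8 letters chosen on 2L, 2R and 4 had at most 1 G or C. The leading word there, AAAAATAT, lay at 12 of 318 distal summits on 3L, 3R and X (3.77%, 2.17 to 6.48%), against 1.57% of their flanks and 5.80% of other peaks there. The next, ATATTTTA, lay at 19 (5.97%, 3.86 to 9.14%), against 1.73% of flanks and 4.87% of other peaks. The word GCCAT, read by Pleiohomeotic, was rarer at summits than in flanks, at 71 summits (14.5%, 11.6 to 17.9%) and 22% of flanks. The repeat CACACACA lay at 3 summits (0.612%) and in 4.08% of flanks.

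Unlike the TATA box, the promoter words DRE, paired BEAF-32 sites and Motif 1 lay at 1 distal summit each or at none. The DRE word TATCGATA, read by DREF, lay at 1 distal summit (0.204%, 0.0360 to 1.15%), against 2.48% of promoter peaks. Paired BEAF-32 sites lay at 0 of 490, which allows a share of up to 0.612% (3 counts of the total), against 1.36% of promoter peaks. The CTCF word lay at 14 (2.86%, 1.71 to 4.74%), against 1.73% of flanks, 1.49% of candidates and 2.08% of promoter peaks. With windows of 25 bp the CTCF share was 1.43%. The Su(Hw) word lay at 11 (2.24%, 1.26 to 3.97%), against 1.02% of flanks, 0.750% of candidates and 1.00% of promoter peaks, and 7 of the 11 peaks were in both replicates' lists. Both intervals overlap those of the flanks. The word of Zelda, CAGGTAG, lay at 1 summit and GAGAGA, read by GAGA factor, at 21 (4.29%) against 3.47% of flanks. Words were matched on both strands, some overlap each other, and a match in a window is not a bound site.

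Annotated transposable elements and second copies of the summit sequence were rare at distal summits, as they were over all peaks. No distal summit of 490 lay in an annotated element, which allows a share of up to 0.612%, against 0.138% of all peaks, 0.120% of promoter peaks and 2.45% (412) of 16802 distal candidates. In replicate 2's own list the distal share was 0.545%. A second copy of the 201 bp around the summit, at 80% identity or more over 100 bp, was found for 1 distal peak (0.204%), on 3R, against 0.638% of all peaks. Soft-masked sequence, which includes simple repeats, held 92 distal summits (18.8%, 15.6 to 22.5%), against 21.2% of all peaks and 15.7% of distal candidates. The sources used here do not say how reads that match several places were handled.

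Homeobox genes were the listed group beside most distal peaks. A gene was counted as beside a peak when it was the nearest protein-coding gene on either side. Of the 490 distal peaks 55 (11.2%, 8.73 to 14.3%) were beside at least 1 of 20 homeobox genes, against 7.62% of distal candidates and 3.23% of the intergenic peaks nearer a start. Among distal candidates and peaks beside homeobox genes 4.12% (3.18 to 5.32%) were called, against 2.83% over all distal ones. The gene with most was hth, a cofactor of Hox proteins, with 8 peaks and 121 candidates, followed by ems, a head gap gene, and vvl, a POU-domain gene, with 7 each. Dr had 6, oc, which acts in head patterning, 5 and E5, the neighbour of ems, 4. None of the 490 was beside a Hox gene, and those genes had 60 distal candidates. The homeobox list has 86 genes, and peaks in 1 interval count for the same gene, so the 55 are not independent.

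The strongest peaks beside homeobox genes were moderate. Downstream of vvl, 29079 bp from the gene, a peak had 262 (127 in replicate 1 and 144 in replicate 2). Between fuss and toy, a Pax6 gene of eye development, on chromosome 4 it was 252 (111 and 132). Beside tup, a LIM-homeodomain gene of heart and neurons, it was 239 (114 and 122). In all of these the replicates differed by less than 1.21 times, the median ratio over distal peaks, and both lists held them. Among the 6 peaks of the hth to CG6465 interval pooled signals were 132, 98.6, 55.9, 3.24, 47.6 and 122, and 3 were in both lists.

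Pair-rule and segment polarity genes had 22 distal peaks (4.49%, 2.98 to 6.70%), against 2.24% of candidates, and 10 were in both lists. Between Wnt4 and wg, the neighbouring genes of a pair of Wnt ligands, 6 distal peaks lay within 10.8 kb. Their pooled signals from the Wnt4 side were 76.8, 101, 113, 210, 84.0 and 74.1, with 35.6, 45.6, 58.2, 104, 36.5 and 33.1 in replicate 1 and 40.5, 56.1, 51.0, 105, 48.0 and 36.2 in replicate 2. The fourth from the Wnt4 side was the highest in both replicates, and G+C at the summits was on average 16.8 points below the flanks. Beside odd, a pair-rule zinc-finger gene, 3 peaks had signals from 128 to 137, all in both lists. The pair-rule gene hry had 4, from 59.8 to 84.4, none of them in both lists. Signalling ligand genes had 15 (3.06%, 1.86 to 4.99%, against 1.80% of candidates), 9 of them beside wg, Wnt4 and the FGF genes pyr and ths.

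Dorsal-ventral patterning genes had 11 distal peaks (2.24%, 1.26 to 3.97%), against 1.01% of candidates, and 7 were in both lists. Between Doc2 and Doc1, T-box genes of the dorsal ectoderm and heart, 4 peaks had pooled signals of 124, 297, 104 and 209, with 42.8, 122, 44.7 and 73.7 in replicate 1 and 77.4, 173, 57.8 and 132 in replicate 2. Replicate 2 was the higher at each. Between pyr and ths 3 peaks reached 194 (84.4 and 105). Gap and maternal genes had 17 (3.47%, against 2.12% of candidates), of which ems had 7 and oc 5. Muscle and heart genes had 12 (2.45%, against 1.37%), 7 of them beside the T-box gene mid.

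Eye and appendage selector genes had 18 distal peaks (3.67%, against 3.95% of candidates), and proneural and neuroblast genes had 8 (1.63%, against 1.44%), among them 2 beside SoxN at 242 and 165. Notch pathway and E(spl) complex genes had 4 (0.816%, 0.318 to 2.08%, against 0.476%), none of them in both lists, among them 1 beside Delta, which encodes a Notch ligand, at 64.8 (27.9 in replicate 1 and 37.8 in replicate 2). Neuronal adhesion and guidance genes had 8 (1.63%, 0.830 to 3.19%), against 4.59% of candidates, so that 1.03% (0.521 to 2.01%) of their distal summits were called. Odorant, gustatory and ionotropic receptor genes had 10 (2.04%, against 3.42%), Cpr cuticle protein genes 2, cytoplasmic ribosomal protein genes 1 and replication-dependent histone genes 0, beside 21 candidates. Genes of architectural and insulator proteins had neither a distal peak nor a distal candidate beside them.

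**Figure D5:**
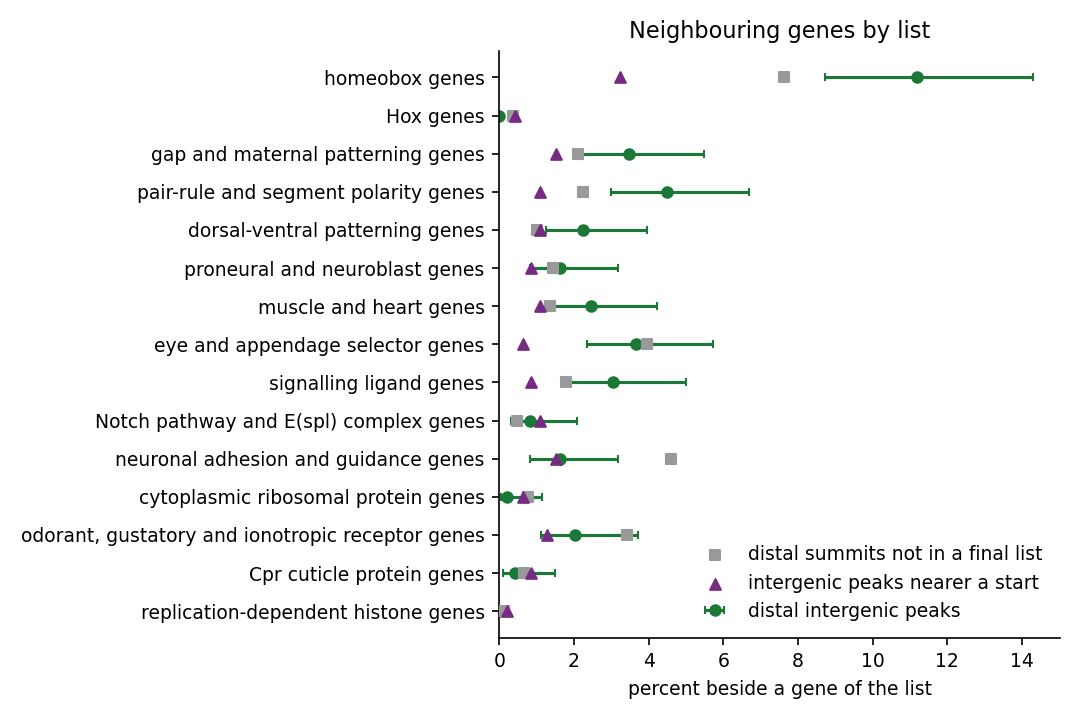
Percent of distal peaks (green circles, with 95% Wilson intervals), of distal candidate summits in no final list (grey squares) and of intergenic peaks nearer a start (purple triangles) beside a gene of each list; no interval is drawn for a count of 0. Homeobox genes stand at 11.2%, 7.62% and 3.23%, and neuronal adhesion and guidance genes at 1.63%, 4.59% and 1.51%.

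Position between genes was close to that of candidates. Convergent genes flanked 145 distal peaks (29.6%, against 29.7% of candidates), divergent genes 109 (22.2%, against 19.9%) and genes in tandem 236 (48.2%, against 49.1%). Another conservative peak lay within 2000 bp of 174 (35.5%, against 37.4% of all peaks) and within 10000 bp of 361 (73.7%, against 78.3%). Among candidates at an irreproducible discovery rate (IDR) of 0.01 or less that no thresholded list holds, 1 of 134 was distal, with a signal of 57.7. Of all candidate summits 13.1% were distal.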

How the data were processed

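The authors deposited peak lists on dm6, per the file headers and names. Each replicate has a ranked and a thresholded list, and the series has 2 of each made from both samples, per the listings deposited with them. The deposited signal column holds the authors' peak signal, taken as given. The −log10 column of the ranked lists holds the authors' IDR, an estimate of the share of peaks that would not recur, and every thresholded peak was taken as they called it. Neither the aligner nor the caller is given in the sources used here. Read depth is unknown, so precision is given only as Wilson 95% intervals, which cover counting error, and for a count of 0 as 3 counts of the total. The series-level ranked lists also have 16 columns of per-sample values with no sample name, which were not used. A replicate's signal at a peak is that of the strongest overlapping peak of its own ranked list.

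Ensembl release 115 gene models (18277 genes, with 5889 transposable elements kept apart) and RefSeq's soft-masked sequence of the same assembly were used. No peak ran past the end of its arm. Python 3.11.15 with pandas 2.3.3, NumPy 2.4.6 and SciPy 1.17.1 was used, and BLAST 2.17.0 for copies. The code passed 8 checks on simulated data.

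The distal peaks, the 16 gene lists and the 32 words were chosen with earlier results of these data known. Of the listed gene symbols 9 were replaced by the names in the gene models. Named peaks are the 25 strongest in both replicates' lists, the 6 to either side of the distance limit, and up to 3 of the strongest beside each list. The fullest intervals, windows and genes were picked after their counts were seen. With 1 group of 2 replicates no test was run. Alternatives were another peak list, distance, peak position, gene model, overlap rule or window, and leaving out each replicate.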

Additional observations from a re-analysis of the deposited data

How the results depend on the processing

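No paired analysis was possible because the samples form 1 group. Of 113 values recomputed under 13 alternatives, 93 stayed within 1.5 times (counts), the Wilson interval (shares) or 1 SD between the replicates' lists (others), and 20 did not. Only the G+C difference could change sign, and it stayed negative throughout. The alternative without members within 10 kb of the strongest one, chosen after seeing the data, left 483 distal peaks, of which 44.7% were in both replicates' lists, and a G+C difference of -11.8 points. The stronger part of the list had 230 distal peaks, 85.2% of them in both lists, a G+C difference of -14.1 points and 23 peaks beside homeobox genes. A distance minimum of 5000 bp gave 311 peaks (5.36%), with a second copy for 0%, and 2000 bp gave 10.5%. Protein-coding genes only gave 748 (12.9%). Windows of 100 bp gave a G+C difference of -8.76 points and windows of 25 bp a CTCF share of 1.43%. Leaving out either replicate gave 280 to 367 distal peaks (7.55% to 8.70%), a median signal of 0.906 to 0.979 of the list's, a median width of 284 to 296 bp and a G+C difference of -14.1 to -11.0 points. It gave 20% to 22.6% of summits in soft-masked sequence, 0% to 0.545% in an annotated transposable element and 31 to 39 peaks beside homeobox genes. Overlap with both replicates could not be recomputed without either of them. The cause of these shifts was not tested.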
